A study of Drosophila melanogaster with 2 samples.

Results

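The genes described here are muscle genes of Drosophila melanogaster. They are 10 early regulators and myoblast fusion genes, 27 genes of the sarcomere and 4 genes that attach muscle or position its nuclei. Not all belong to embryonic body wall muscle: fln, Act79B and Act88F are known from adult muscles, and tin from heart and gut muscle. The genes were chosen by symbol, as a list of 41 genes known for these roles, with earlier results of these data known. Of the 41, 40 have a row of that symbol among the 13623 genes measured. The gene tn, a TRIM protein of the Z-disc, has no row under that symbol. RefSeq gives abba as an older name of tn, and the row abba is given below but left out of all counts. Nuclear RNA was sequenced after INTACT, a method that marks the nuclear envelope of chosen cells with a tagged protein and pulls their nuclei from a homogenate of whole cross-linked embryos on anti-Flag beads. GNP, the gcm-expressing neural progenitors, came from embryos aged 5 to 7 h after egg laying, in which the driver gcm-Gal4 was combined with UAS-mCDGFP, a Cyo balancer and the tag UAS-3xFLAG-blrp-mCherry-RanGap. Glia came from embryos aged 12 to 14 h, in which the driver was repo-Gal4, with the same UAS-3xFLAG-blrp-mCherry-RanGap tag over a Tm3B balancer. The tagged protein is biotinylated by BirA, which both lines express. These are the stated ages; the labels also give 3 and 10 h of development after a 2 h collection, which would make the embryos younger. The driver, the balancer and the mCDGFP transgene thus differ between the lines, and nuclei are marked in every cell in which the driver is active. There was 1 library of each, so no difference has a replicate check and no p-value is given. Cell type, age of the embryo and line changed together, and their parts in a difference cannot be told apart.

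Body wall muscle forms from the mesoderm, which twi sets up and in which tin is later kept in the heart and gut muscle lineages. Founder myoblasts, which carry the receptors kirre or rst, fuse with competent myoblasts, which carry sns, and Mef2 then drives the genes of the contractile apparatus. In the sarcomere, myosin thick filaments slide along actin thin filaments, troponin and tropomyosin gate the sliding with calcium, and titin-like proteins and the Z-disc hold the filaments in place. Muscle genes are not part of the known program of glia or of neural progenitors, although how, the integrins and some actin and tropomyosin products also act outside muscle.

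Expression is given in FPKM, the reads of a gene scaled to the length of its transcript and to the mapped reads of the library. The change of a gene is log2((glia FPKM + 1)/(GNP FPKM + 1)), and ratios are of the FPKM values themselves. A gene was counted as higher or lower in glia when it differed at least 2-fold on the log2(FPKM + 1) scale, a size limit and not a test. The low values of the genes fall on steps of whole reads, which correspond to about 63.8 M mapped reads (M, 10 to the power of 6) in GNP and 52.3 M in glia if fragments were 200 bases long. In the glia library repo was at 32.0 FPKM against 3.84 FPKM in GNP. Of 11 glial markers 6 were higher and 0 lower, where 21.2% of all genes were higher and 16.4% lower. By direction alone 3 of the 11 fell, all inside the limit. gcm, the gene whose enhancer drives the tag in GNP, was at 40.2 FPKM there, with 21.5 FPKM in glia. Of 8 neural progenitor markers, 6 were lower in glia and 0 higher. Scaling both libraries to the same total (TPM) moved the median change of expressed genes by -0.23 and upper quartile scaling moved it by 0.18, against 0.11 without scaling.

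Of the 40 muscle genes, 24 were higher in the glia library, 4 were lower and 12 lay within 2-fold. Among all 13623 genes 21.2% were higher and 16.4% lower. This balance depends on the scaling: of all genes 2893 were higher and 2231 lower as deposited, 2550 and 2780 with TPM scaling, and 3318 and 1864 with upper quartile scaling. Of the muscle genes 20 were higher and 5 lower with TPM scaling, 24 and 2 with upper quartile scaling, and 19 and 4 when centred on the median gene. The median change of the 40 genes was 1.09, against 0.04 for all genes. At a limit of 4-fold, 13 of the muscle genes were higher and 1 was lower, where 8.46% of all genes were higher and 4.51% lower. At 1.5-fold the counts were 26 higher and 5 lower, with 29.8% and 24.1% of all genes. The summed level of the 40 genes was 2298 FPKM in GNP against 10384 FPKM in glia, or 0.309% and 1.17% of the total of each library. In a library of many nuclei, the number of nuclei that hold a transcript and its amount per nucleus cannot be told apart, and the values do not show which nuclei, tagged or not, held the muscle RNA. The study checked purity by the share of mCherry-positive nuclei. It also compared genes specific to different tissues in each library, by expression and by active histone marks. Neither check is analysed here.

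**Figure D1:**
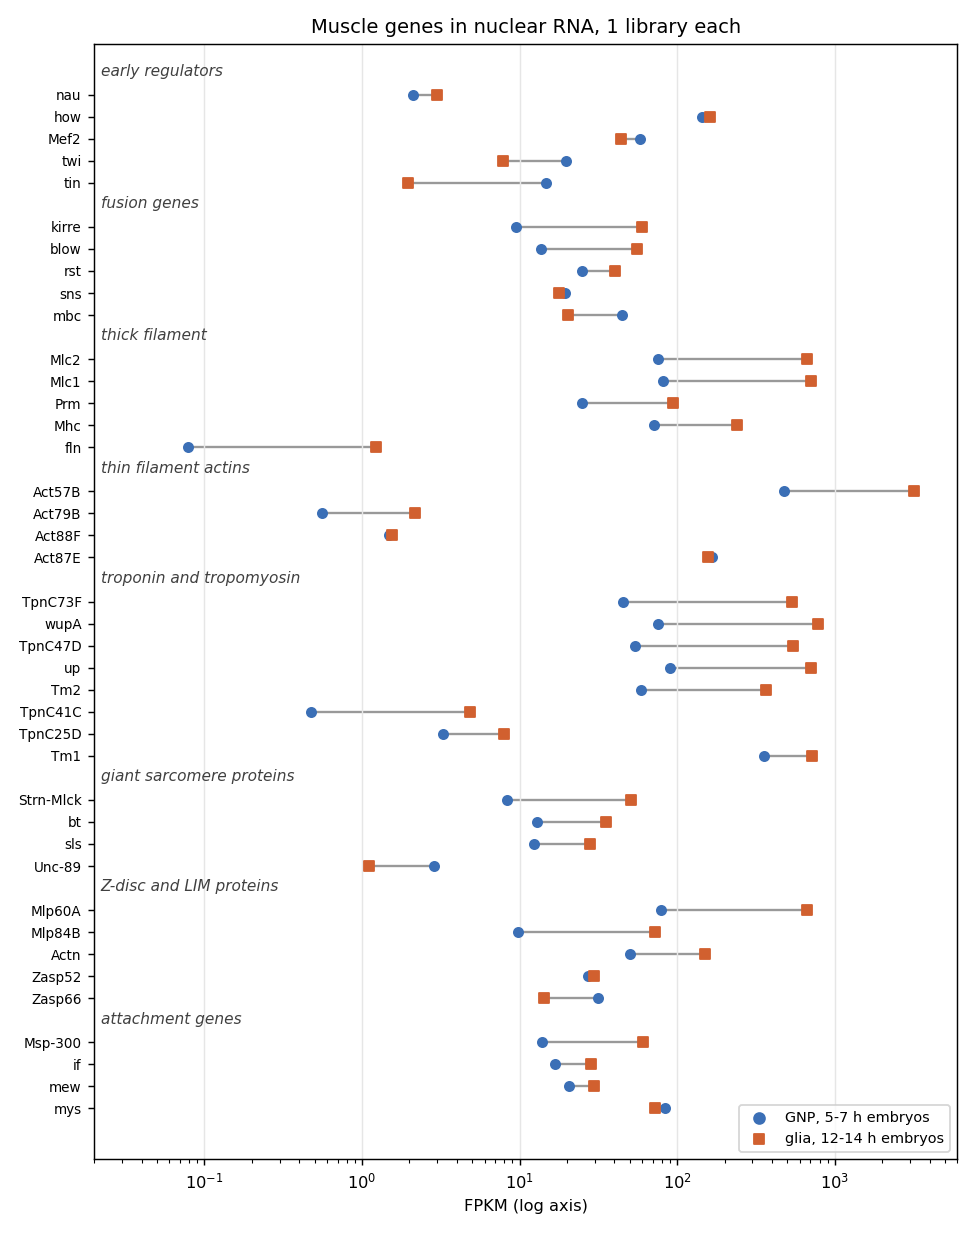
FPKM of the 40 muscle genes (log axis) in the GNP library (blue circles) and the glia library (orange squares), 1 library each, grouped by role and sorted by change within a group. The 4 abundant troponin genes and the myosin light chains move from between 45.6 and 90.2 FPKM to between 539 and 781 FPKM, while the early regulators lie close together or shift to the left.

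None of the 5 early regulators was higher in glia and 2 were lower, where 21.2% of all genes were higher and 16.4% lower. twi, the bHLH factor that specifies mesoderm, was at 19.7 FPKM in GNP and 7.83 in glia. The homeobox gene tin, which heart and visceral muscle need, was at 14.7 FPKM in GNP against 1.95 FPKM in glia. These were the only regulators below the 2-fold limit, with changes of -1.23 and -2.41, and tin had the lowest change of all 40 genes. The GNP value of tin was 7.54 times the glia value and rests on about 1371 reads in GNP and 149 in glia, so the 95% Poisson intervals of 13.9 to 15.5 FPKM and 1.65 to 2.28 FPKM do not overlap. These and the other intervals given here cover counting error only. On BDGP6, a later build than the one the reads were mapped to, tin lies on chromosome 3R from 21378977 to 21381970 on the plus strand.

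Mef2, which encodes the MADS-box factor that activates sarcomere genes, was at 58.3 FPKM in GNP and 43.7 in glia, a change of -0.41. It stayed within 2-fold while most sarcomere genes were higher. nau, the fly relative of MyoD, was at 2.11 FPKM in GNP against 2.98 FPKM in glia. It was the least expressed of these regulators in GNP, with about 178 reads there and 206 in glia, and it shares exon bases with CG10300 on the other strand. how, which encodes an RNA-binding protein known from muscle, tendon cells and glia, was at 144 FPKM in GNP and 160 in glia. Its change of 0.16 turned to -0.09 with TPM scaling, so its direction depends on the scaling.

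The fusion genes went in both directions. kirre, an immunoglobulin receptor of founder cells, was at 9.53 FPKM in GNP against 59.6 FPKM in glia, a ratio of 6.25. blow, a cytoplasmic protein needed for fusion, was at 13.7 FPKM and 55.2 FPKM, a ratio of 4.02. mbc, the fly DOCK protein that activates Rac during fusion, was lower instead, at 44.9 FPKM in GNP and 20.4 in glia. With upper quartile scaling its change went from -1.10 to -0.91, inside the 2-fold limit. sns, the receptor of the fusion-competent cells and partner of kirre, was at 19.4 FPKM in GNP against 17.7 FPKM in glia. Its change of -0.13 became 0.06 with upper quartile scaling.

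rst, the close relative of kirre, was at 24.9 FPKM in GNP and 40.4 in glia. The pair thus changed places: rst was the higher of them in GNP and kirre in glia. On BDGP6 kirre covers chromosome X from 2740384 to 3134532 on the plus strand, and rst lies inside this span, from 2950399 to 2973834 on the minus strand. Their exons do not overlap. Both receptors are also known from cells outside muscle, among them the developing eye.

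All 5 thick filament genes were higher in glia, where 21.2% of all genes were higher. Mlc2, the regulatory light chain of muscle myosin, was at 75.8 FPKM in GNP against 666 FPKM in glia. Mlc1, the essential light chain, was at 81.2 FPKM and 711 FPKM. The ratios of the light chains were alike, 8.79 for Mlc2 and 8.76 for Mlc1. Mhc, which encodes every muscle myosin heavy chain of the fly from 1 gene, was at 71.0 FPKM in GNP and 241 in glia. Its ratio of 3.40 was well below that of the light chains, although the 3 genes had stood close together in GNP. Prm, which encodes the paramyosin of the thick filament core, was at 25.1 FPKM and 94.0 FPKM, a ratio of 3.75.

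fln encodes flightin, a thick filament protein known from adult flight muscle, and was the least expressed of the 40 genes in GNP. It was at 0.0791 FPKM in GNP against 1.23 FPKM in glia. The GNP value corresponds to 4 to 5 reads and the glia value to 53 to 66, with 95% Poisson intervals of 0.0216 to 0.203 FPKM and 0.922 to 1.61 FPKM. The intervals do not overlap, but the FPKM ratio of 15.6 rests on these few reads. The change on the log2(FPKM + 1) scale was 1.05. An antisense RNA overlaps fln on BDGP6, and since the counting is not stated to use strand its reads cannot be told apart from those of fln.

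The 4 muscle actin genes did not move together. Act57B, the main actin of embryonic and larval muscle, was at 473 FPKM in GNP and 3197 in glia. It was the highest of the 40 genes in both libraries and the only one among the 100 most expressed genes of the glia library, where it ranked 70. Act87E, another larval muscle actin, was at 165 FPKM in GNP against 158 FPKM in glia. Its change of -0.07 became 0.13 with upper quartile scaling, so no direction can be given. Among all genes Act87E stayed near percentile 95.4 to 96.0 in both libraries.

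The remaining actins, known from adult muscles, were low. Act79B was at 0.557 FPKM in GNP and 2.17 in glia, with 95% Poisson intervals of 0.411 to 0.738 FPKM and 1.84 to 2.55 FPKM. Act88F, the actin of the indirect flight muscle, was at 1.48 FPKM in GNP against 1.54 FPKM in glia, with intervals of 1.24 to 1.75 FPKM and 1.27 to 1.85 FPKM. A change of Act88F was thus not detectable at this depth. Actin genes have nearly identical coding sequences, and uniquely mapped reads of 49 bp count only where the copies differ, so the division of reads among these genes is uncertain.

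Of the 4 muscle actins together Act57B made up 73.9% in GNP and 95.2% in glia. Of all 6 actin genes, with the cytoplasmic Act5C and Act42A included, it made up 13.6% in GNP and 50.4% in glia. The part of Act5C was 66.1% in GNP and 33.7% in glia, although its own level was 2302 FPKM in GNP and 2138 in glia. The summed level of the 6 genes went from 3484 FPKM to 6348 FPKM, and most of the difference was Act57B.

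**Figure D2:**
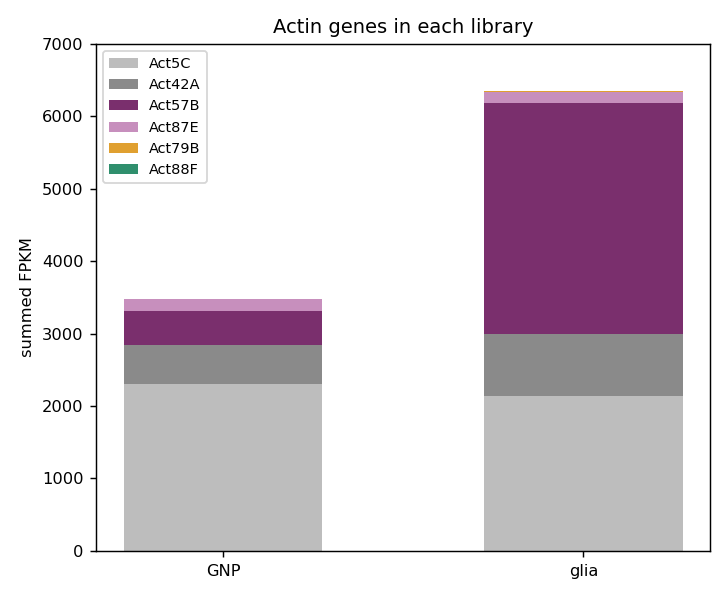
Summed FPKM of the 6 actin genes in the GNP and the glia library, 1 library each, with 1 colour for each gene. The part of Act57B grows from 473 to 3197 FPKM while Act5C is at 2302 and 2138 FPKM; Act79B and Act88F, at or below 2.17 FPKM, are too low to be seen.

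The troponin and tropomyosin genes formed the group with the largest median change, 2.79, and all 8 were higher in glia, against 21.2% of all genes. TpnC73F, a calcium-binding troponin C, was at 45.6 FPKM in GNP against 539 FPKM in glia. TpnC47D, the other troponin C of larval muscle, was at 54.3 FPKM and 540 FPKM. In glia these 2 genes were at nearly the same level, and TpnC73F, with a ratio of 11.8, had the largest change of all 40 genes, at 3.53. Its place on BDGP6 is the plus strand of chromosome 3L, from 17046063 to 17048390. wupA, which encodes troponin I, the inhibitory subunit, was at 76.0 FPKM in GNP and 781 in glia. up, which encodes troponin T, the subunit that binds tropomyosin, was at 90.2 FPKM and 703 FPKM. The ratios were 10.3 for wupA and 7.79 for up, so that the 4 abundant subunit genes of the troponin complex lay between 539 and 781 FPKM in glia.

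Tm2, the muscle tropomyosin gene, was at 58.8 FPKM in GNP against 368 FPKM in glia, a ratio of 6.25. Tm1, its neighbour, encodes both muscle and cytoplasmic tropomyosins. It was at 356 FPKM in GNP, far above the other genes of the group, and at 718 FPKM in glia. Its ratio of 2.01 was the lowest of the group, and its change of 1.01 went to 0.76 with TPM scaling and to 0.89 when centred on the median gene. Tm1 and Tm2 lie on the plus strand of chromosome 3R of BDGP6, Tm1 from 15278220 to 15308779 and Tm2 from 15310193 to 15315197. The table sums the isoforms of a gene, so the muscle products of Tm1 could not be told apart from the others.

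The other troponin C genes were low in both libraries. TpnC41C was at 0.472 FPKM in GNP and 4.83 in glia, a ratio of 10.2, with 95% Poisson intervals of 0.284 to 0.737 FPKM and 4.11 to 5.65 FPKM. TpnC25D was at 3.26 FPKM in GNP against 7.92 FPKM in glia. TpnC25D shares exon bases with tkv, a receptor gene on the other strand, and its change of 1.07 went to 0.88 with TPM scaling. TpnC73F and TpnC47D made up 43.97% and 52.4% of the summed level of the 4 genes in GNP, and 49.3% and 49.5% in glia. The split between the main troponin C genes was thus nearly the same in both libraries, while their sum went from 104 FPKM to 1092 FPKM.

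The genes of the giant sarcomere proteins reached up to 12.9 FPKM in GNP and up to 50.6 FPKM in glia. Strn-Mlck, a titin-like protein with kinase domains, was at 8.29 FPKM in GNP and 50.6 in glia, a ratio of 6.11. bt, which encodes projectin, was at 12.9 FPKM and 35.5 FPKM, a ratio of 2.75. sls, which encodes the elastic Z-disc protein Sallimus, was at 12.3 FPKM and 27.8 FPKM, a ratio of 2.25. bt and sls had much smaller ratios than the light chains and troponins, and the change of sls, 1.11, went to 0.88 with TPM scaling and to 0.99 when centred on the median gene. Unc-89, which encodes obscurin of the M-line, was on the other side, at 2.85 FPKM in GNP against 1.11 FPKM in glia. Its change of -0.86 was inside the limit, but it reached -1.28 with a pseudocount of 0.1 and -1.10 with TPM scaling. The estimated 1831 to 2359 reads in GNP and 587 to 756 in glia put this difference beyond counting error.

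Among the Z-disc and LIM proteins, Mlp60A, a muscle LIM protein, was at 78.7 FPKM in GNP and 669 in glia. Mlp84B, the other muscle LIM protein, was at 9.77 FPKM and 72.4 FPKM. Mlp60A stood about as high as the myosin light chains and Mlp84B far below them, yet their ratios were 8.51 and 7.41. Actn, the actin crosslinker alpha-actinin of the Z-disc, was at 50.4 FPKM in GNP against 150 FPKM in glia, a ratio of 2.98. The row abba was at 4.08 FPKM and 20.3 FPKM, a ratio of 4.98.

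The PDZ and LIM proteins of the Zasp family did not follow the other Z-disc genes. Zasp52 was at 26.99 FPKM in GNP and 29.8 in glia, and its change of 0.14 became -0.10 with TPM scaling. Zasp66 was at 31.3 FPKM in GNP against 14.3 FPKM in glia, the only sarcomere gene counted as lower on the log2(FPKM + 1) scale. By FPKM alone Unc-89 fell further: its GNP value was 2.56 times its glia value, against 2.19 times for Zasp66. The change of Zasp66, -1.08, went to -0.90 with upper quartile scaling.

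Of the attachment genes 1 of 4 was higher, or 25%, close to the 21.2% of all genes. Msp-300, a giant nesprin that links muscle nuclei and Z-discs to the cytoskeleton, was at 14.0 FPKM in GNP and 61.1 in glia, a ratio of 4.37. The integrin subunits lay within 2-fold. if, the alpha subunit on the muscle side of the attachment, was at 16.7 FPKM and 28.3 FPKM. mew, the alpha subunit on the tendon side, was at 20.6 FPKM and 29.6 FPKM. mys, the beta subunit they share, was the most expressed of the group, at 83.4 FPKM in GNP against 72.0 FPKM in glia. Integrins act in many tissues, and 0 of the 3 genes reached the 2-fold limit under any scaling tried.

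Set against each other, sarcomere genes and early genes differed in their change. Of the 26 sarcomere genes found, 21 were higher and 1 was lower, with a median change of 1.81. Of the 10 early regulators and fusion genes, 2 were higher and 3 were lower, with a median change of 0.01 that joins unlike groups. The 5 regulators had a median of -0.41 with 0 higher, and the 5 fusion genes a median of 0.68 with 2 higher. Of the early genes 20% were higher and 30% lower, against 21.2% and 16.4% of all genes. The difference of the medians was 1.79, and it lay between 1.64 and 2.24 under the alternatives. Centring on the median gene takes the same amount from every gene and cannot change this difference. TPM and upper quartile scaling multiply a whole library and could hardly change it, so these alternatives say little about it. The median of the early genes itself turned to -0.23 with TPM scaling and to 0.21 with upper quartile scaling. The summed level of the early genes was 351 FPKM in GNP and 410 in glia, whereas that of the sarcomere genes was 1812 FPKM and 9783 FPKM. Genes of 1 library are not replicates, so this is a description of these libraries.

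**Figure D3:**
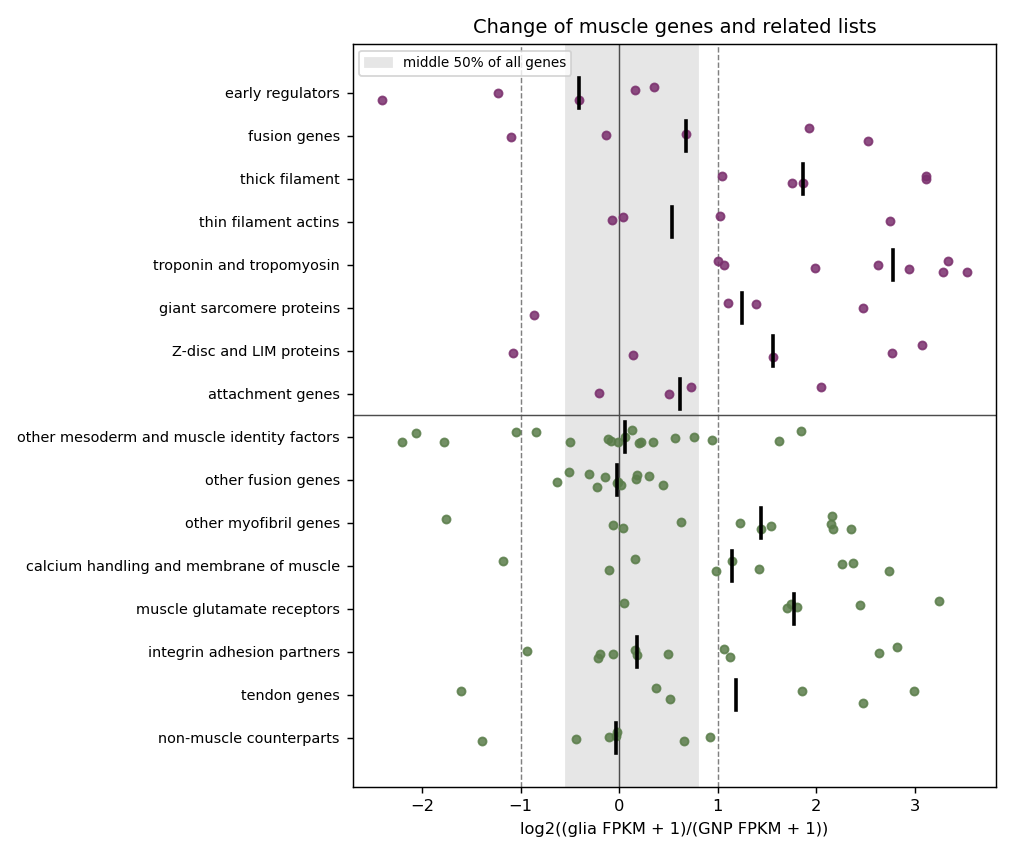
Change of each gene, as log2((glia FPKM + 1)/(GNP FPKM + 1)), for the 8 groups of muscle genes (purple, above the line) and 8 related lists (green), with black bars at the medians. The grey band holds the middle 50% of all genes and dashed lines mark 2-fold; thick filament and troponin genes lie at or beyond the right line, while early regulators lie on both sides of 0.

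The order of levels within the muscle genes was largely kept between the libraries. Over the 26 sarcomere genes the levels in GNP and glia had a Pearson r of 0.92 and a Spearman rho of 0.91 on the log2(FPKM + 1) scale. Over all 40 genes they had a Pearson r of 0.85 and a Spearman rho of 0.82. These are descriptions across genes that share both libraries. A set of 9 genes, chosen after the values were seen, stood close together: Mhc, Mlc1, Mlc2, wupA, up, Tm2, TpnC73F, TpnC47D and Mlp60A lay between 45.6 and 90.2 FPKM in GNP, a span of 1.98-fold. In glia the same genes lay between 241 and 781 FPKM, a span of 3.24-fold, and Mhc was the lowest of them. Of the 40 genes, 7 were among the top 10% of all genes in GNP and 15 in glia. At the other end, 7 of the genes were under 5 FPKM in each library.

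In the pairs compared here, the muscle genes changed places with their non-muscle counterparts. The non-muscle myosin heavy chain zip was at 135 FPKM in GNP against 50.8 FPKM in glia, so Mhc was 0.526 times zip in GNP and 4.75 times in glia. The regulatory light chain sqh was at 235 FPKM and 232 FPKM, and Mlc2 went from 0.322 to 2.87 times its level. The essential light chain Mlc-c was at 175 FPKM and 171 FPKM, and Mlc1 went from 0.463 to 4.16 times its level. In GNP each muscle myosin gene was thus below its counterpart and in glia above it. The shift between libraries was 9.03-fold for the heavy chains, 8.90-fold for the regulatory and 8.98-fold for the essential light chains. These 3 shifts were alike although zip was lower in glia and the non-muscle light chains were nearly level. Act57B went from 0.206 to 1.495 times Act5C and from 0.875 to 3.75 times Act42A. As ratios within a library these values do not depend on the scaling of the libraries. The other muscle actins, Act87E, Act79B and Act88F, were below Act5C and Act42A in both libraries.

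**Figure D4:**
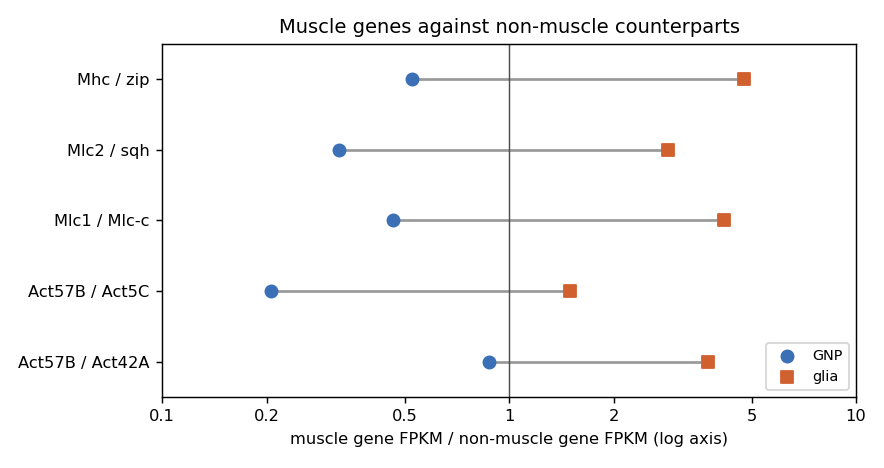
FPKM of a muscle gene divided by that of its non-muscle counterpart (log axis) in GNP (blue circles) and glia (orange squares), 1 library each; the vertical line marks equal levels. All 5 ratios lie below 1 in GNP, from 0.206 to 0.875, and above 1 in glia, from 1.495 to 4.75.

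Related genes were read from 8 further lists, of muscle, its attachment, tendon and non-muscle counterparts. Their counts stand beside the 21.2% of all genes that were higher and the 16.4% that were lower. Of 11 other myofibril genes 7 were higher and 1 was lower in glia, with a median change of 1.44. The filamin cher was at 22.4 FPKM in GNP and 119 in glia, the largest change of this list at 2.35, and CG5023 was at 26.3 FPKM and 7.10 FPKM, the lowest. Of 6 genes of the glutamate receptors of the neuromuscular junction 5 were higher, and Neto, an auxiliary subunit, was at 0.255 FPKM and 0.299 FPKM. GluRIIC, an essential subunit, was at 1.27 FPKM in GNP against 20.6 FPKM in glia, and GluRIIE, another, was at 1.90 FPKM and 8.44 FPKM. The receptor genes thus moved with the sarcomere genes but at far lower levels, with a median of 8.37 FPKM in glia.

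Of 9 genes for calcium handling and the muscle membrane 5 were higher and 1 was lower. jp, the junctophilin that ties the surface membrane to the sarcoplasmic reticulum, was at 4.77 FPKM in GNP and 37.6 in glia. Stim, a calcium sensor of many cells, was at 83.3 FPKM and 36.2 FPKM. The median change of this list was 1.14, and 0.94 with TPM scaling.

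Lists of earlier steps lay nearer to 0. Among 19 other factors of mesoderm and muscle identity 2 (10.5%) were higher and 4 (21.1%) were lower, with a median of 0.06. Among all genes 21.2% were higher and 16.4% lower. The GATA factor pnr, of the heart and dorsal ectoderm, was at 37.6 FPKM in GNP against 7.34 FPKM in glia, and kn, a factor of certain muscles and neurons, was at 8.58 FPKM and 28.4 FPKM. Of 12 other fusion genes 0 were higher and 0 lower, and the changes lay between -0.63 for siz and 0.44 for WASp. Unlike kirre and blow, these genes, most of which act on actin in many cells, thus stayed within 2-fold. Of 11 integrin partners and ligands 4 were higher and 0 lower, with a median of 0.18. mspo, a spondin of muscle attachment, was at 4.52 FPKM in GNP and 38.1 in glia, and Fit1, a kindlin, was at 57.3 FPKM and 29.3 FPKM. Of the 7 non-muscle counterparts and actin regulators 0 were higher and 1, zip, was lower.

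Markers of other cell types differed in direction. Of 5 neuron markers 4 were higher in glia, and their summed level was 105 FPKM in GNP, with 460 FPKM in glia. Most of that difference was fne, an RNA-binding protein of neurons, at 14.7 FPKM and 327 FPKM. elav, the usual marker of all neurons, was on the other side, at 76.9 FPKM and 44.2 FPKM. The list of tendon genes had 3 of 6 higher and 1 lower and summed to 53.8 FPKM and 149 FPKM. sr, the factor that defines tendon cells, was at 1.54 FPKM and 13.1 FPKM, and slow, which encodes a protein secreted by them, was at 3.83 FPKM and 37.5 FPKM. Alk and kon of this list are better known from visceral mesoderm and muscle, and Alk was its lower gene. Of 5 fat body markers 2 were higher, with sums of 43.2 FPKM and 731 FPKM, nearly all of it Adh at 36.2 FPKM and 698 FPKM; Lsp1beta, Fbp1 and Yp1 were under 0.5 FPKM in both. Of 6 hemocyte markers 1, Pxn, was higher, a share below the 21.2% of all genes. They summed to 41.9 FPKM and 80.2 FPKM, with Pxn at 10.2 FPKM and 55.4 FPKM. The scavenger receptor crq was at 29.5 FPKM and 21.9 FPKM, and Hml, a defining marker, was at 0.945 FPKM and 0.120 FPKM. eater was at 0.0556 FPKM in GNP, on about 11 reads, and at 0 in glia. nimC1 went the other way, at 0.650 FPKM and 2.03 FPKM, as did lz, at 0.522 FPKM and 0.762 FPKM. By direction alone 3 of the 6 hemocyte markers rose and 3 fell. The 11 glial markers summed to 323 FPKM in GNP and 590 FPKM in glia. Sums of lists that differ in size and kind of gene do not compare amounts of cell types. The part of other cell types in the muscle signal was not tested.

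The length of a gene was also set beside its change. BDGP6 gave a place for all 40 genes, with 11 on 3R, 11 on 2R, 8 on X, 6 on 3L, 3 on 2L and 1 on chromosome 4. Gene spans run from 1442 bases for TpnC47D to 394149 bases for kirre. Spearman's rho of span and change was -0.29 over the 40 genes, -0.24 over the 26 sarcomere genes and 0.04 over 9782 expressed genes. This is a description across genes. Of the 7 muscle genes of at least 50 kb 4 were higher and 1 was lower, with a median change of 1.11, against 1.07 for the 33 shorter ones. Exons of 13 of the 40 genes overlap those of another gene on BDGP6, in 10 cases on the other strand, and the reads of such genes may be shared.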

How the data were processed

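One table with 1 GNP and 1 glia library of nuclear RNA was used. The authors used TopHat (version 1.3.1) to map their 49 bp single-end reads to FlyBase transcripts, and the deposited FPKM values per gene came from Cuffdiff (version 1.3.0), on uniquely mapped reads; the submitters' processing notes name Bowtie and dm3. In total 2 columns of the authors' own comparison, a p-value and a call for each gene, were not used. Changes were computed as log2((glia FPKM + 1)/(GNP FPKM + 1)), which understates the change of low genes, with 2-fold as a limit of size and no test. Depth was estimated from the steps of low values of genes with 1 transcript of at least 600 bases: 82.2% of the values of up to 10 reads in GNP and 83.0% in glia lay within 0.1 of a whole read. Read numbers use BDGP6 transcript lengths and are approximate. Gene lists were written by hand, and members and lists were chosen with earlier results of these data known. All genes found by the rule are named. Of other lists the highest and lowest change, if the mean was 5 FPKM or more, or defining genes, are named. The genes Neto, Stim, crq, Hml, nimC1, lz, Yp1, Fbp1, Lsp1beta, kon and Alk were chosen after their values were seen. The computing of changes was checked on GNP values multiplied by known folds without noise, and that of depth on simulated reads. These checks cover the code and not the calls between the libraries. Alternatives were a pseudocount of 0.1, TPM, upper quartile scaling, centring on the median gene, only genes averaging 1 FPKM or more, 1.5-fold or 4-fold as the limit, the attachment genes counted with the sarcomere, and shares without ribosomal protein genes. The tools were matplotlib 3.10.9, scipy 1.17.1, pandas 2.3.3, numpy 2.4.6 and Python 3.11.15.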

Additional observations from a re-analysis of the deposited data

How the results depend on the processing

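Each library was alone in its group, so the alternatives bear on processing and not on repeatability, and no replicate could be left out. No paired analysis was possible because each group has 1 library. Of 199 alternative values for the 40 muscle genes 186 kept their side of the 2-fold limit, and 32 genes kept it throughout. Of these values 39 came from keeping only genes averaging 1 FPKM or more. That filter leaves a gene's own change as it was, so those 39 could not have moved. The 8 genes that crossed the limit were mbc, Zasp66, Unc-89, Tm1, Act79B, fln, TpnC25D and sls, all near it. A limit of 4-fold left 13 genes higher and 1 lower, since fewer genes pass it, and upper quartile scaling left 2 lower, because mbc and Zasp66 moved inside the limit. Centred on the median gene the median change of the 40 genes was 0.97. Without ribosomal protein genes in the total, the 40 genes made up 0.501% in GNP and 2.06% in glia, because the total is smaller. Of the 13 other lists, the medians of the calcium handling (0.94), tendon (0.95) and glial marker (0.87) lists went inside the limit with TPM scaling, and that of the fat body list was 3.20 when only its genes averaging 1 FPKM or more were kept. Low values that rest on few reads, as for fln and Act88F, are limited by depth.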
